A study of Mus musculus with 4 samples.

Results

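The CCAAT/enhancer-binding proteins (C/EBPs) are described here through the 6 genes that carry a Cebp symbol, Cebpa, Cebpb, Cebpd, Cebpg, Cebpe and Cebpz. They were chosen by symbol through their Ensembl identifiers, and all 6 were among the 21840 genes measured. RNA was sequenced from 4T1, a mouse mammary carcinoma cell line labelled as epithelial and wild type (WT). The 2 control libraries came from cells given phosphate-buffered saline (PBS) and the 2 treated libraries from cells given recombinant IL-17A (rIL17), with 4 libraries in all. IL-17A is an inflammatory cytokine, made mainly by lymphocytes, to which epithelial cells respond. Neither dose nor length of treatment is given in the sources used here. The labels do not tell whether replicates were separate cultures, so the spread behind every p-value may be only technical. 4T1 is a single cultured line, so the comparison holds for this line alone.

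C/EBPs are basic leucine zipper (bZIP) transcription factors that bind DNA as dimers with each other or with related bZIP proteins. C/EBPβ and C/EBPδ, encoded by Cebpb and Cebpd, are the members known from inflammation and the acute-phase response. They act beside NF-kB on promoters of IL-17 target genes such as Lcn2 and Il6. C/EBPα and C/EBPε direct differentiation of fat, liver and myeloid cells. C/EBPγ lacks a transactivation domain and pairs with other bZIP factors, and the Cebpz product is a CCAAT-binding protein of another family that is not a leucine zipper factor.

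Genes with near-identical sequence can share reads, so the members' transcripts (GENCODE M21) were compared first. The longest run shared by Cebpb and Cebpd was 27 bases. It was 29 bases between Cebpa and Cebpb, the longest for any pair of the 6, and 12 bases between Cebpb and Cebpz. Read length is not given in the sources used here, so whether reads could be shared was not tested.

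Promoters are shown for 4 genes described below as higher with rIL17, Lcn2, Saa3, C3 and Il6, all of which held a match. Each is shown from RefSeq (GRCm38.p6) over the 250 bases before its start site, 5′ to 3′ along the gene's strand, and capitals mark the match to the C/EBP motif TTGCNNAA on either strand. Lcn2 lies on the minus strand at chr2:32387740-32387989, Saa3 on the minus strand at chr7:46715677-46715926, C3 on the minus strand at chr17:57228137-57228386 and Il6 on the plus strand at chr5:30012864-30013113.
Lcn2: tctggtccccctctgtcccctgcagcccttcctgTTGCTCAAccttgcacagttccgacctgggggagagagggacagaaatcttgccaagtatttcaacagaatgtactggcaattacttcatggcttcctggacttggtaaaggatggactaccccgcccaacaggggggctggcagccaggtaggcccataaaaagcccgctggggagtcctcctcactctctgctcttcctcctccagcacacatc
Saa3: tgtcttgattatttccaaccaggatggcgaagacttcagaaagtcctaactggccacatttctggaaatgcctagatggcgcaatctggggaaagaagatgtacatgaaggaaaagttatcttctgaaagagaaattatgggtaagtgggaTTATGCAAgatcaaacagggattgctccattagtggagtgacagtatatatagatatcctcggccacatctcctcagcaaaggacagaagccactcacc
C3: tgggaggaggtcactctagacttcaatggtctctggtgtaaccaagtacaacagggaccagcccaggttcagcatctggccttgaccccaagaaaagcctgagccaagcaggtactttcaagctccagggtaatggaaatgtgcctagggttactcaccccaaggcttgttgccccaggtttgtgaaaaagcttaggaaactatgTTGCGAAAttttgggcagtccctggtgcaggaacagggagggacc
Il6: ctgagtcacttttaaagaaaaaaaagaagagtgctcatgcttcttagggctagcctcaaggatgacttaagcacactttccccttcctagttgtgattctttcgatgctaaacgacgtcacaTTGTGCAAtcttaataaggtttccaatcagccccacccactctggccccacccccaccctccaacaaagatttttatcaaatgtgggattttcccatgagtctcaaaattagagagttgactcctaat
The matches began 216, 99, 45 and 128 bases before the start site, in that order. A match was present in 9.56% of all 32851 promoter entries of the same length. It was present in 10 of the 16 genes with an entry on a list of 22 acute-phase and IL-17 target genes of C/EBP. Of the 6 that were called higher it was present in 4, the promoters shown, and absent from Cxcl1 and Mmp13. Among these, Il6 passed the filter for testing only through the rIL17 libraries, as described below. Listed genes that were not called also included some with a match and some without. Of the members, Cebpa, Cebpb and Cebpg had an entry, and 0 of these 3 windows held TTGCNNAA. Entries for Cebpd, Cebpe and Cebpz were not used here. The target list was drawn up as C/EBP targets, so its share of matches against all entries is no independent evidence. A match describes letters in a window and is not evidence of a bound site.

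Every deposited value was a whole multiple of 1 step per library, and the values are taken to be read counts divided by 1 scaling factor per library (here, normalized counts). On that reading, library depth was alike, with 17511450 to 17970104 reads in genes. Epithelial keratin genes were abundant, with Krt8 at 25498 to 32665 normalized counts over the 4 libraries, while Cdh1 (139 to 208) and Epcam (76.6 to 135) were present at lower levels. The summed level of 4 epithelial markers was 49439 and 53081 in PBS and 41721 and 43414 in rIL17. limma called 0 of the 4, with 3 at an unadjusted p below 0.05 (Krt8 log2 fold change -0.26, Krt18 -0.27, Cdh1 -0.45), a level that 16.5% of all genes tested reached. Of 7 leukocyte markers 3 were in the table: Ptprc had 0 to 3.02, Ly6g 0 to 1.96 and Cd68 108 to 127 normalized counts, with a log2 fold change of 0.0061 for Cd68. Of 4 fibroblast markers 3 were in the table, with a summed level of 2406 and 2518 in PBS and 2946 and 2939 in rIL17. limma called 0 of them, with log2 fold changes of 0.26 for Pdgfra and 1.26 for Dcn (both at an unadjusted p below 0.05) and -0.55 for Col1a1. With a correction for transcript GC content these were 0.30 (limma adjusted p = 0.0411), 0.50 (adjusted p = 0.29) and -0.45 (adjusted p = 0.477). Dcn had 17.9 to 62.3 normalized counts. The part of these markers in the results below was not tested. Genes with a mean of at least 1 CPM (read count scaled to the library total) over the 4 libraries were tested with limma on log2(normalized count + 1), and a gene was called at an adjusted p below 0.05 (Benjamini-Hochberg over all 12516 genes tested). limma called 101 genes, or 0.807%, of which 78 (0.623%) were higher and 23 (0.184%) lower in rIL17. After a correction for transcript GC content the split was 192 higher and 100 lower. The number called depended on the libraries kept: it was 2773 without PBS replicate 1, 692 without PBS replicate 2 and 1 without either rIL17 library.

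Cebpd was the member that rose with rIL17. Its RNA was at 911 and 1008 normalized counts in PBS replicates 1 and 2 and at 2332 and 2441 in rIL17 replicates 1 and 2. Both treated libraries lay more than 2 times above both controls, and the libraries within a group lay close together. The means were 960 ± 68.5 and 2387 ± 77 (SD, n = 2 per group), a ratio of 2.49. The log2 fold change was 1.31 (SE 0.08, 95% confidence interval 1.12 to 1.51), with a limma adjusted p of 0.00549. By p-value Cebpd ranked 4 among the 12516 genes tested, and by log2 fold change, from the highest down, it ranked 142. In bulk RNA, more cells with the transcript and more transcript per cell cannot be told apart. Cebpd (ENSMUSG00000071637) lies on the plus strand of mm10 chromosome 16 at 15887286 to 15891031, and its coding transcript has no intron.

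The size of the Cebpd difference moved little between settings. The call itself was lost under a looser filter (limma adjusted p = 0.25) and without rIL17 replicate 1 or 2 (adjusted p = 0.164 and 0.122). The log2 fold change then was 1.31, 1.35 and 1.28. It was 1.24 without PBS replicate 1 and 1.39 without PBS replicate 2, with a call each time. A looser filter together with the GC correction, chosen after seeing the data, gave 1.43 with a call (limma adjusted p = 0.000935).

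**Figure D1:**
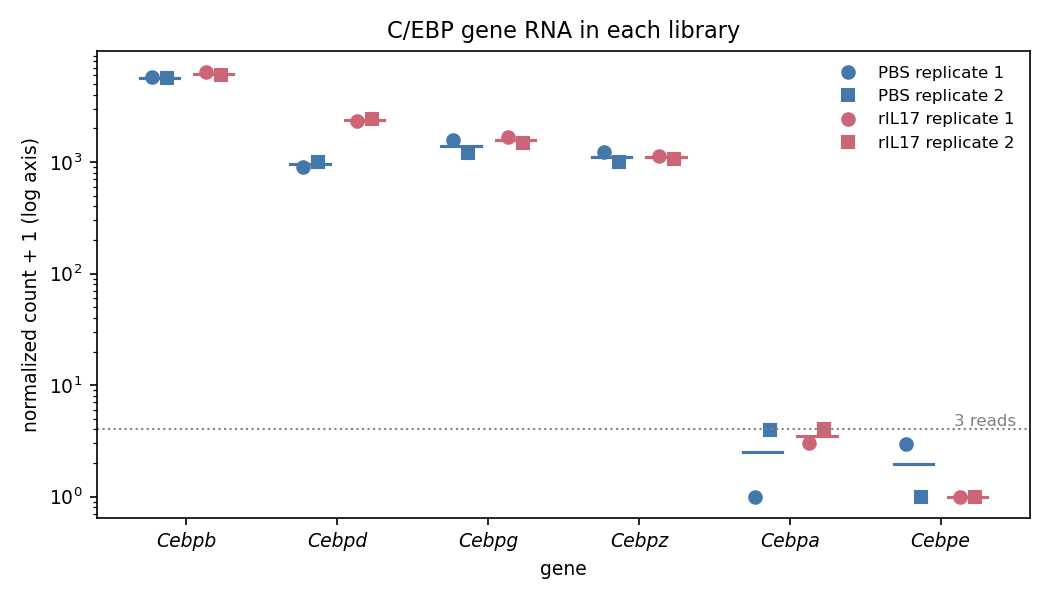
Normalized count + 1 on a log axis for the 6 C/EBP genes in the 4 libraries; circles are replicate 1, squares replicate 2, blue PBS, red rIL17, short lines the group means, and the dotted line marks 3 reads. Cebpd stood at 911 and 1008 in PBS and 2332 and 2441 in rIL17, Cebpb was the most abundant by normalized count, and Cebpa and Cebpe lay at or below about 3 reads in every library.

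Cebpb had the most RNA of the family and did not pass the test. Its level was 5747 and 5637 normalized counts with PBS against 6423 and 5983 with rIL17. Both treated libraries were above both controls. Such an order was seen in 25.8% of all genes tested. The means were 5692 ± 77.3 and 6203 ± 311 (SD, n = 2 per group), a ratio of 1.09. The log2 fold change was 0.12 (SE 0.06, interval -0.03 to 0.27, limma adjusted p = 0.378). The interval of this fit leaves room for a rise of up to 0.27 on the log2 scale and does not reach the Cebpd value. With a correction for transcript GC content the log2 fold change was 0.22 (SE 0.08), so that limit holds for this fit only. Cebpb (ENSMUSG00000056501) lies on the plus strand of mm10 chromosome 2 at 167688915 to 167690418, again without an intron.

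Because both genes were measured in the same libraries, their balance can be given for each library. The log2 ratio of Cebpd to Cebpb normalized counts was -2.66 and -2.48 in PBS and -1.46 and -1.29 in rIL17. The groups did not overlap. The difference of 1.19 had an exact two-sided permutation p of 0.333, which is the smallest value that 2 libraries against 2 allow.

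Levels of different genes can be compared only per length. Per kilobase of exon (GENCODE M21), the Cebpb level was 3785 ± 51.4 normalized counts with PBS and 4124 ± 207 with rIL17 (SD, n = 2). Cebpd rose on this scale from 256 ± 18.3 to 637 ± 20.6. In PBS, Cebpb was thus 15.7 and 13.9 times as abundant per kilobase as Cebpd in replicates 1 and 2, and in rIL17 6.86 and 6.1 times. Cebpg, with 280 and 212, and Cebpz, with 263 and 213 per kilobase in PBS, lay next to the Cebpd values of 243 and 269. In rIL17 these lengths gave 623 and 652 for Cebpd, 296 and 262 for Cebpg and 245 and 228 for Cebpz. The share of Cebpd in the summed per-kilobase level of the 6 genes went from 5.28% and 6.06% to 11.5% and 12.7%. These shares, and the order of Cebpd, Cebpg and Cebpz, depend on the annotated length. With the RefSeq length of 2260 bases in place of 3746, Cebpd came to 403 and 446 per kilobase with PBS, above both others, and 1032 and 1080 with rIL17, and Cebpb was 9.47 and 8.4 times Cebpd in PBS and 4.14 and 3.68 times in rIL17. With the shorter of its 2 coding transcripts (914 bases) in place of 5621 exon bases, Cebpg came to 1722 and 1307 per kilobase in PBS and 1820 and 1610 in rIL17, above Cebpd in both groups. Cebpb was the highest on each of these lengths, and the order of the other 3 is not settled by these data.

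**Figure D2:**
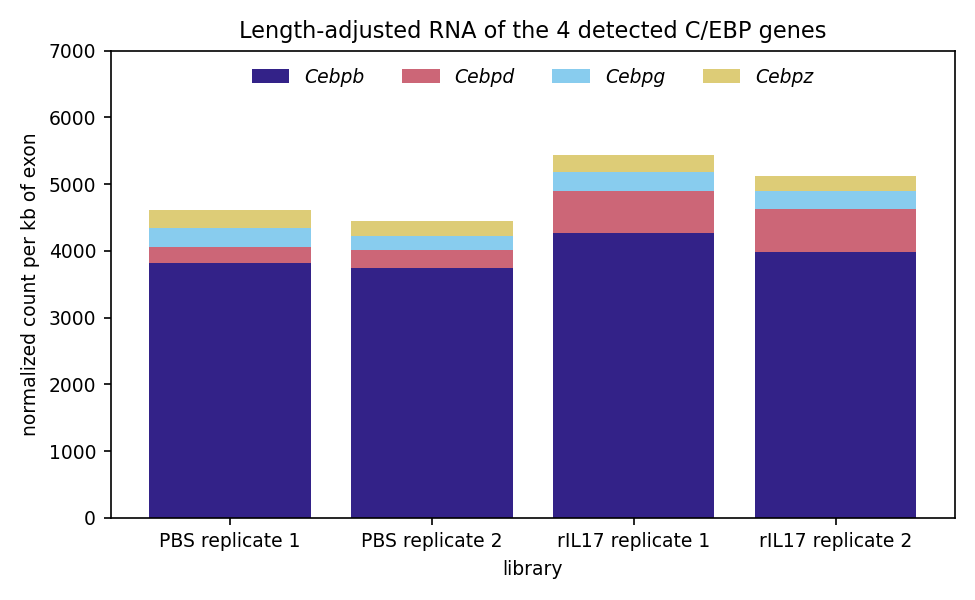
Stacked bars of normalized counts per kilobase of exon for Cebpb, Cebpd, Cebpg and Cebpz in each of the 4 libraries, with the axis from 0. At these exon lengths Cebpb makes up most of each bar (77.7% to 84.3% of the 6 genes' sum). The Cebpd segment grows from 243 and 269 in PBS to 623 and 652 in rIL17.

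Cebpg encodes a partner that can restrain other C/EBPs. It was measured at 1574 and 1194 normalized counts in PBS and 1664 and 1471 in rIL17. The groups overlapped, and the controls differed more from each other than the group means did. The means were 1384 ± 268 and 1567 ± 136 (SD, n = 2), with a log2 fold change of 0.19 (SE 0.14, interval -0.14 to 0.52, limma adjusted p = 0.533). This value moved with the library left out, most with the PBS libraries. It was 0.10 without rIL17 replicate 1 and 0.28 without rIL17 replicate 2. Without PBS replicate 2 the log2 fold change was -0.0085, and without PBS replicate 1 it was 0.39. With the GC correction added, chosen after seeing the data, these values were -0.05 and 0.15. Cebpg (ENSMUSG00000056216) lies on the minus strand of mm10 chromosome 7 at 35046422 to 35056573.

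Cebpz, whose product is a nuclear CCAAT-binding protein, was measured at 1223 and 992 normalized counts with PBS and at 1140 and 1062 with rIL17. Both treated libraries lay between the controls. The log2 fold change was -0.0021 (SE 0.11, interval -0.28 to 0.27, limma adjusted p = 0.994). Its sign turned to 0.15 without PBS replicate 1 and 0.05 without rIL17 replicate 2. Cebpz (ENSMUSG00000024081, minus strand of mm10 chromosome 17, 78919006 to 78937066) overlaps the opposite-strand gene Cebpzos over 1301 bases. The strand setting of the counting is not given in the sources used here, so reads in the overlap are uncertain. Cebpzos itself had 68.2 to 110 normalized counts.

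Cebpa and Cebpe were at the limit of detection in both groups. Cebpa, the gene of the fat, liver and myeloid factor C/EBPα, gave 0 and 2.98 normalized counts with PBS and 2.01 and 3.01 with rIL17. Cebpe, the gene of the granulocyte factor C/EBPε, gave 1.96 and 0 with PBS and 0 in both rIL17 libraries. Their means of 0.113 and 0.0278 CPM were under the filter, so neither was tested. A library with a count of 0 allows up to 3 reads, or 2.94 to 3.02 normalized counts, a floor that covers counting error only. Both groups lay at or about this floor, and no fold change is given. Cebpa lies 62719 bases from Cebpg on chromosome 7, so a gene at the floor and a gene with 1194 or more normalized counts are neighbours. Genes known as adipocyte and myeloid targets of these factors were low as well: of a list of 15, the 8 in the table reached at most 9.05 normalized counts in any library, and 0 passed the filter.

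**Figure D3:**
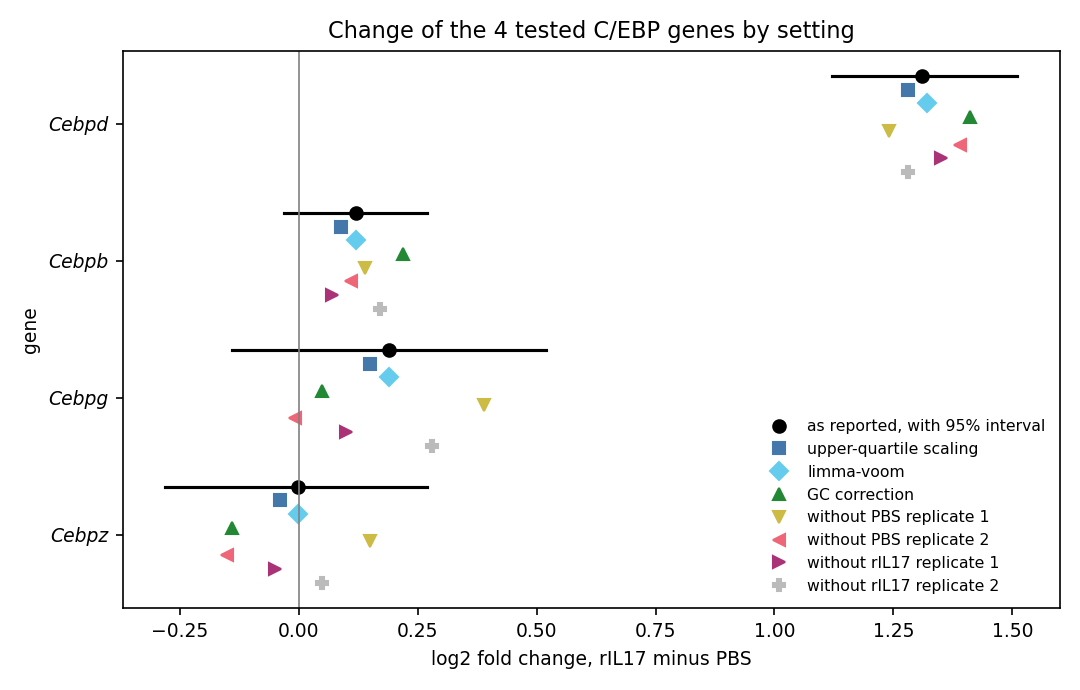
Log2 fold changes (rIL17 minus PBS) of the 4 tested C/EBP genes as reported (black, with the 95% confidence interval) and under 7 other settings. Cebpd runs from 1.24 to 1.41, Cebpb from 0.07 to 0.22, and Cebpg and Cebpz move to either side of 0 with the library left out.

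The libraries differed along transcript GC content, and the members span a wide range of it. Among tested genes within 3 percentage points of Cebpg (43.3% GC), the median log2 fold change was 0.14 over 3145 genes. The median difference of PBS replicate 2 from PBS replicate 1 in them was -0.18, while Cebpg itself differed by -0.40. Around Cebpz (43.4%) the median fold change was 0.13. Around Cebpd (51.6%) it was -0.05 over 3924 genes, and around Cebpb (67.2%) -0.10 over 54. The GC correction gave values of 1.41 on the log2 scale for Cebpd (SE 0.06, limma adjusted p = 0.000374), 0.22 for Cebpb (adjusted p = 0.227), 0.05 for Cebpg (adjusted p = 0.808) and -0.14 for Cebpz (adjusted p = 0.358). The call on Cebpd thus held with the correction. The Cebpb value went from 0.12 to 0.22 without passing the test, and the Cebpg value from 0.19 to 0.05.

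**Figure D4:**
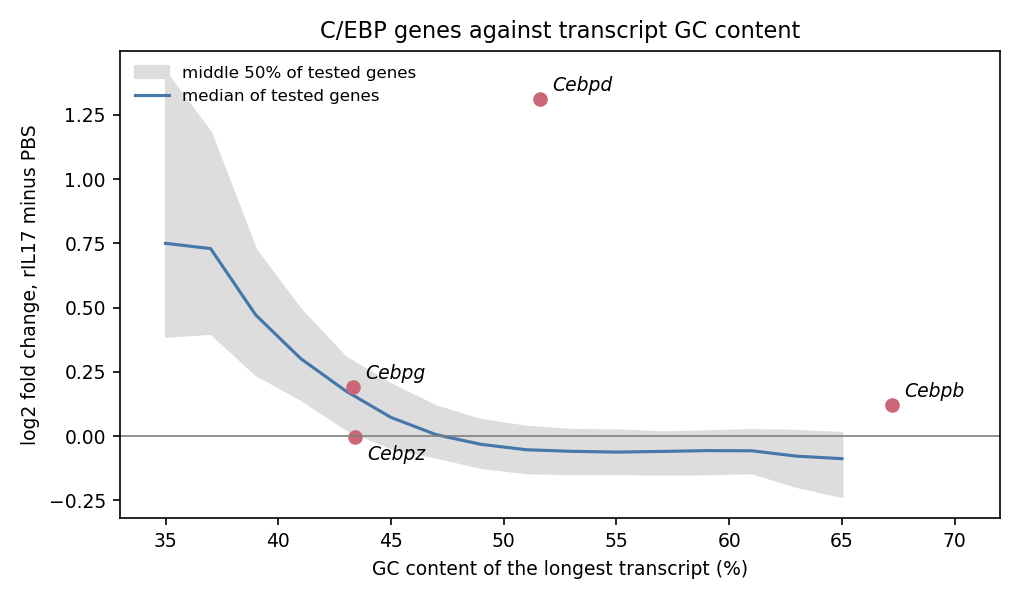
Log2 fold change against the GC content of the longest transcript (%); the line is the median and the band the middle 50% of tested genes in bins 2 percentage points wide, and red points are the 4 tested C/EBP genes. Cebpg and Cebpz, at 43.3% and 43.4%, lie where the median is above 0, and Cebpd, at 51.6%, lies far above a median just below 0.

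The wider pathway was described through lists of genes around the C/EBPs, read against a median log2 fold change of -0.0029 over all genes tested, of which 49.3% were above 0. Of 14 genes that carry the IL-17A or related signals to C/EBP genes, 13 were tested and limma called 2, both higher, where 0.623% of all genes tested were called higher. The median was -0.0064, and limma called 0 of the 13 without either rIL17 library. Osmr, encoding the receptor chain for oncostatin M, a cytokine that activates STAT3, was at 565 and 466 normalized counts with PBS and at 1337 and 1135 with rIL17. Each treated library was above each control, as for 25.8% of all genes tested. Osmr rose by 1.26 on the log2 scale (SE 0.13, limma adjusted p = 0.02). Nfkbiz, encoding the nuclear cofactor IkBζ, rose by 0.58 (SE 0.08, limma adjusted p = 0.0384). Stat3, named after its value was seen, encodes a transcription factor known to act on the Cebpd promoter. Its level was 2052 and 1917 normalized counts with PBS and 2664 and 2695 with rIL17 (log2 fold change 0.43, limma adjusted p = 0.0546). It did not pass here, and passed with the GC correction (0.54, adjusted p = 0.0197). The receptor genes Il17ra and Il17rc had log2 fold changes of -0.06 and -0.13 and were not called.

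Of 11 dimer partners and related bZIP genes, 10 were tested and limma called 0, with 3 at an unadjusted p below 0.05 (16.5% of all genes tested); limma-voom also called 0. The median was 0.02, and 6 were above 0. With a term for replicate number limma called 1, higher, and with the GC correction 0. Ddit3, encoding CHOP, a stress-induced partner that blocks DNA binding of C/EBPs, was at 588 and 589 normalized counts with PBS and at 461 and 529 with rIL17 (log2 fold change -0.25, limma adjusted p = 0.287). Atf3, another stress-induced bZIP gene, went from 228 and 228 to 184 and 177 (log2 fold change -0.34, limma adjusted p = 0.252). Both treated libraries were below both controls for these 2 genes, as for 25.4% of all genes tested. Atf2, a CRE-binding factor, had a log2 fold change of 0.40 (limma adjusted p = 0.151), which was 0.02 with the GC correction.

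Of 15 genes that control C/EBP protein or mRNA, all 15 were tested and limma called 0, with 3 at an unadjusted p below 0.05 (16.5% of all genes tested); limma-voom also called 0. The median was 0.05, and 9 were above 0. With the GC correction limma called 1, higher. With the GC correction and a term for replicate number it called 1 higher and 1 lower. Zc3h12a encodes Regnase-1, a nuclease that degrades cytokine mRNAs, and was at 1482 and 1489 normalized counts with PBS and at 2021 and 1919 with rIL17. Both treated libraries were above both controls, as for 25.8% of all genes tested. The log2 fold change of 0.41 had a limma adjusted p of 0.0642 (0.51 and 0.0215 with the GC correction). Trib2, one of the Tribbles pseudokinases that guide C/EBPα to degradation, had a log2 fold change of 0.29 (limma adjusted p = 0.167), and its relative Trib1 one of -0.04 (limma adjusted p = 0.805).

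Most tested acute-phase and IL-17 target genes of C/EBP rose, as Cebpd did. Of 22 listed, 20 were in the table and 14 passed the filter. limma called 10, all higher, where 0.623% of all genes tested were called higher, and the median log2 fold change of the tested genes was 0.90. Il6 (0.507 CPM in PBS, 4.27 in rIL17) and S100a8 (0.789 and 1.46) passed the filter only through the rIL17 libraries. Of the 12 genes with at least 1 CPM in both groups, limma called 9, all higher, where 0.522% of all such genes were called higher. This list overlaps targets already known to be higher in these libraries and is no independent evidence. Lcn2, encoding lipocalin-2, whose promoter is shown above, rose by 1.75 (SE 0.05, limma adjusted p = 0.000333). C3, the central complement gene, rose by 0.96 (SE 0.06, adjusted p = 0.0061 in limma), from 4687 and 4569 normalized counts to 9327 and 8676. Saa3, a serum amyloid gene of the acute phase, rose by 1.35 (SE 0.10, limma adjusted p = 0.0107), and Csf3, the granulocyte growth factor gene, rose by 0.85 (SE 0.07, limma adjusted p = 0.0115). Il6, named after its value was seen, rose by 2.96 from 8.83 and 8.95 normalized counts to 81.4 and 71.2 (limma adjusted p = 0.0195). With the GC correction its log2 fold change was 2.44. The number called in this list was 0 under the looser filter, where limma called 0 of all genes (2642 at an unadjusted p below 0.05), and 1 without either rIL17 library. It was 9 with the looser filter and the GC correction together.

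**Figure D5:**
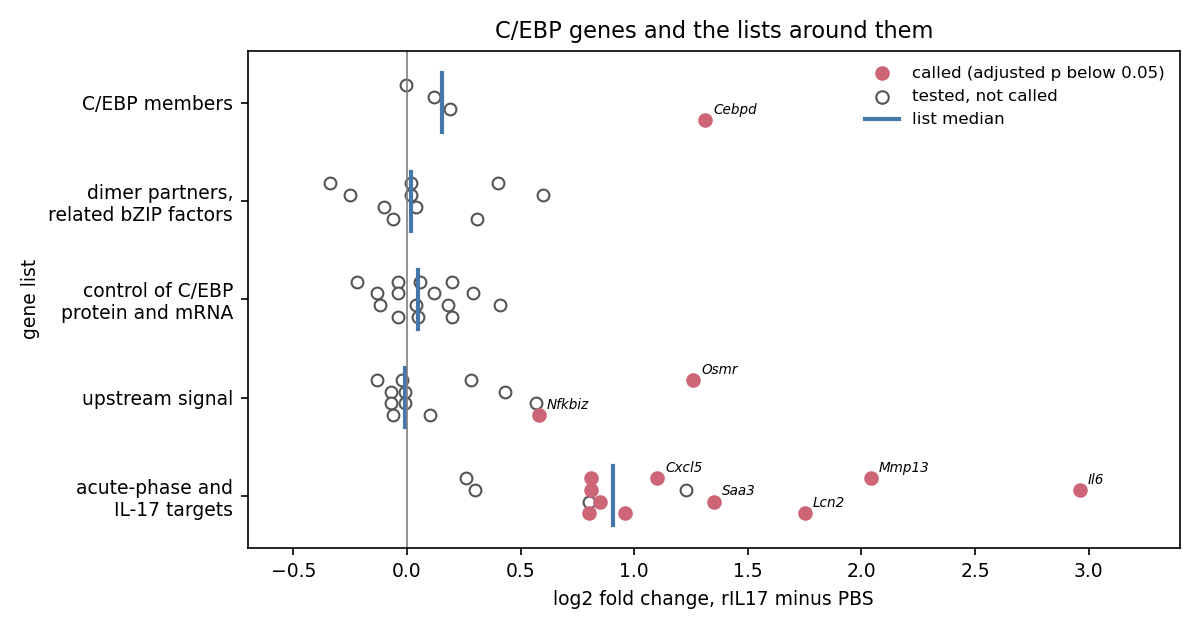
Log2 fold changes (rIL17 minus PBS) of the tested genes of 5 lists, filled red where called by limma at an adjusted p below 0.05 and open otherwise; blue bars are list medians, and called genes with a change of at least 1 or on the upstream list are named. Cebpd at 1.31 lies within the range of the 10 called target genes, while the partner and control lists are spread around 0.

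The genes whose pattern over the 4 libraries was most like that of Cebpd were found by the Euclidean distance between log2(normalized count + 1) profiles, each centred on its own mean. The nearest of all tested genes was Saa3, at a distance of 0.042, where the median tested gene was at 1.337. A gene with no change lies about as far away as the Cebpd log2 fold change of 1.31, so that median mostly restates it. Saa3 levels were 300 and 340 normalized counts with PBS and 801 and 827 with rIL17. Next came Emilin2, a matrix glycoprotein gene (distance 0.133, log2 fold change 1.19), Lipn, a lipase gene (0.161, log2 fold change 1.41), Pim2, a kinase gene (0.200, log2 fold change 1.51), and Selp, encoding P-selectin (0.220, log2 fold change 1.28). Of these 5, Lipn was not called (limma adjusted p = 0.0642) and had 25.9 to 72.2 normalized counts. For Cebpb, the nearest were Ammecr1l, Fam210b, Gk5 and Tango6, at distances of 0.011 to 0.014, where the median tested gene was at 0.266. Their log2 fold changes of 0.12 to 0.14 were not called. A distance over 4 libraries is a description of these libraries only.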

How the data were processed

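RNA of 4T1 cells was sequenced in 2 PBS and 2 rIL17 libraries. A directional kit and total RNA were used, per the labels' protocols. Tools named in the submitters' processing notes are CASAVA, HISAT2 2.0.5 and featureCounts 1.5.0-p3, with build mm10. The values deposited by the authors are a normalized signal. All of them (100%, tolerance 0.001) divided evenly by a step per library, 0.9811 and 0.9944 for PBS and 1.0053 and 1.0029 for rIL17, and they were handled as gene read counts divided by a scaling factor. Symbols matched 21819 of 21840 rows. Coordinates, exon lengths and GC content are from GENCODE M21.

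Genes with a mean of at least 1 CPM over the 4 libraries were tested with limma 3.58.1 (R 4.3.3, mean-variance trend) on log2(normalized count + 1), a scale that understates the change of low genes. Treatment was the sole term. The looser filter kept genes whose mean reached 1 normalized count in either group. The fit was checked on simulated data that held no difference between libraries along GC content, so the check does not cover that difference. Members and lists were chosen with earlier results of these data known, as was the filter. Named genes are the 6 members, up to 4 called genes of each list by smallest p (or the 2 with the smallest p), Ddit3, Trib1, and 5 genes of like pattern each for Cebpb and Cebpd, of which 1 is not reported here. Stat3, Il6, Il17ra, Il17rc, Cebpzos, S100a8, Cxcl1 and Mmp13 were named after their values were seen. Epithelial, leukocyte, fibroblast and adipocyte markers were looked at in every library (1 of 3 adipocyte markers was in the table, at 0 to 1.99 normalized counts). Promoter letters were searched with Python 3.11.15.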

Additional observations from a re-analysis of the deposited data

How the results depend on the processing

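The Cebpd rise kept its direction under every alternative run. Its log2 fold change was 1.31 with the looser filter and with no filter, both of which ended the call and left 0 C/EBP genes and 0 genes in all called by limma (2642 and 2739 at an unadjusted p below 0.05). With each library left out it ran from 1.24 to 1.39, and a group of 1 library then takes its spread from the other group. In those fits the C/EBP genes called numbered 0 to 2 (2 without PBS replicate 1, Cebpd and Cebpg) and all genes called 1 to 2773. Cebpg then ran from -0.0085 to 0.39 and Cebpz from -0.15 to 0.15. Over all genes, 179 were called with upper-quartile scaling, 153 with a robust prior, 292 with the GC correction and 6 at an adjusted p below 0.01. The cause of these changes was not tested.

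Same-numbered replicates shared only a number in the labels. Their differences correlated at 0.15 over genes, and the replicate block called 1030 genes, or 316 with the GC correction, and changed no call on a C/EBP gene. Chosen after seeing the data, the GC correction without PBS replicate 1 called 2196 genes, among them 2 C/EBP genes, Cebpd and Cebpb (0.29). Without PBS replicate 2 it called 873 genes and gave Cebpg -0.05. With the looser filter it called 88 genes, Cebpd among them. The count tests on recovered reads (edgeR and DESeq2) were planned and not run.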
